A study of Mus musculus with 3 samples.

Results

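Nonclassical monocytes were examined in brain tissue around an implanted mouse glioblastoma (GBM). A cell was placed in this class when it carried at least 1 unique molecular identifier (UMI, a distinct captured RNA molecule) of at least 2 of the 6 markers Ear2, Adgre4, Treml4, Cd300e, Fabp4 and Eno3, at least 1 UMI of Csf1r, no UMI of Arg1, and UMIs of fewer than 3 of the 5 microglia genes P2ry12, Tmem119, Sall1, Gpr34 and Olfml3. Of 4269 cells kept in 3 libraries, 147 met this gate: the vehicle library (vehicle replicate 2) gave 26 of them, niacin replicate 1 gave 69 and niacin replicate 2 gave 52. The cells were chosen by their measured UMIs of these gate genes, so the levels of the gate genes in them are a description. Results are given for genes that the gate did not read.

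Monocytes are blood cells of the myeloid lineage that circulate in a classical form, marked in mice by the surface protein Ly6C, and a nonclassical form with little Ly6C. Nonclassical monocytes arise from classical ones under the transcription factor Nr4a1, crawl along the inner wall of blood vessels with the integrin LFA-1, and depend on the fractalkine receptor Cx3cr1 and on Bcl2 for survival. In the brain they are distinct from microglia, the resident macrophages of the tissue, which carry high Cx3cr1 and Csf1r but not the blood monocyte markers.

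Recipients were female C57BL/6 wild-type mice, bought at 6 to 8 weeks of age, that carried intracranial grafts of brain tumor-initiating cells (BTICs) grown from NPcis mice, which bear mutations in Nf1 and Trp53. The tumor cells of all groups thus came from 1 genetic model, in hosts with an intact immune system. Niacin (vitamin B3) was injected intraperitoneally at 100 mg/kg daily from day 7 after implantation, and the vehicle group received saline. At 4 weeks the tissue around the injection site was taken, and the tissues of several mice were pooled for each library. The labels give 4 brain tissues per pool but 5 vehicle mice for 1 library and 10 niacin mice for 2, so the number of mice behind a library is not settled. After a Percoll gradient the live cells were sorted and loaded on droplets with 3′ chemistry. Blood cells that were still in the vessels cannot be told apart from cells in the tissue, because a perfusion step is not given in the sources used here.

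The 3 libraries held 2145 to 2532 barcodes and 8301228 to 10359526 UMIs. Of 6947 barcodes, 2300 also occurred in another library. A barcode found in a second library was kept only where its UMIs were at least 5 times those of the copy, which dropped 1259 of the 5528 barcodes with at least 200 genes and at most 20% mitochondrial UMIs. Among the 147 nonclassical monocytes, 54 had such a barcode, and 32 of the 54 came from niacin replicate 1, 16 from niacin replicate 2 and 6 from vehicle. A further 11 barcodes with a median of 667 UMIs met the marker gate but fell to this rule. Dropping every shared barcode left 20, 37 and 36 nonclassical monocytes. A single vehicle library gives no spread for its group. Niacin and vehicle are therefore set side by side without a test, and intervals for a single library cover counting error only.

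Few T cells, a class not gated on these markers, carried at least 2 of them. Levels are given as UMIs per 1000000 UMIs of the summed cells (CPM), in the order vehicle, niacin replicate 1, niacin replicate 2. Ear2, an eosinophil-associated ribonuclease with near-identical paralogs between which reads may have been split, stood at 476, 844 and 975 CPM in nonclassical monocytes and at 0.905, 1.23 and 1.12 CPM in microglia. Adgre4, an adhesion G protein-coupled receptor of myeloid cells, stood at 599.6, 717 and 699.7 CPM. Treml4, a receptor related to the TREM family, was at 327, 409 and 467 CPM. All 3 were far above their level in microglia in each library, where Adgre4 reached 1.79 to 2.71 CPM and Treml4 0 to 0.738 CPM. Nonclassical monocytes were chosen by these genes, and the classes were gated to exclude each other. The gap to microglia was thus set in part by the gates and is a description.

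Cd300e, an activating receptor of the CD300 family, was at 336, 399.8 and 313 CPM, and was listed at 0 in the classical monocytes of all 3 libraries. Classical monocytes were gated outside the nonclassical class, so this difference is a description too. Fabp4, a fatty acid binding protein, was at 179, 359 and 261 CPM. Eno3, the muscle form of the glycolytic enzyme enolase, was at 174, 387 and 494 CPM. Of the 6 markers, 5 were lowest in the vehicle library and Cd300e was lowest in niacin replicate 2. Of the 147 cells, 140 carried Adgre4, 131 Ear2, 128 Treml4, 109 Eno3, 100 Cd300e and 80 Fabp4. T cells, which should lack these genes, gave the background: 1 of 400 carried at least 2 of the 6 markers. Ear2 or Adgre4 was carried by 0 of 400, which allows a share of up to 0.75% for each. The T cell gate required no Csf1r UMI, which can leave out cells with monocyte RNA, so this background may be too low. The median depth was 7648 UMIs (900 to 34516) in nonclassical monocytes and 5356 to 6286 UMIs in the T cells of the 3 libraries.

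On GRCm38 (GENCODE M21 annotation), the markers are protein-coding genes that lie on 4 chromosomes: Ear2 at chr14:44102654-44103534, Adgre4 at chr17:55749984-55853662, Treml4 at chr17:48264295-48275360, Cd300e at chr11:115051917-115062177, Fabp4 at chr3:10204088-10208576 and Eno3 at chr11:70657202-70662513. Ace lies at chr11:105967945-105989964, Nr4a1 at chr15:101254269-101274795 and Spn at chr7:127132232-127137823.

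**Figure D1:**
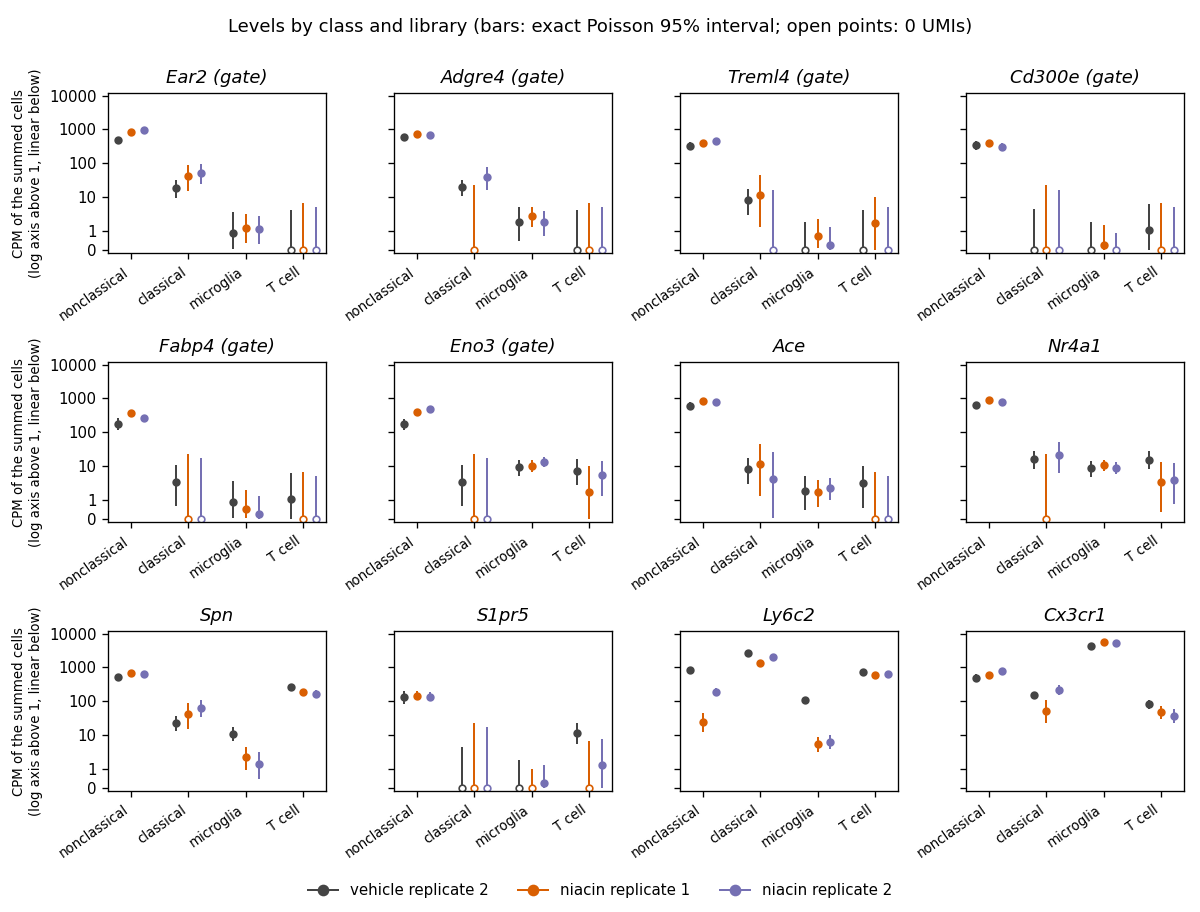
Levels of the 6 gate markers and of 6 genes that the gate did not read, in CPM of the summed cells (log axis above 1, linear below), for 4 classes of cells in 3 libraries. Points are library values, bars are exact Poisson 95% intervals and open points mark 0 UMIs. Ace, Nr4a1 and S1pr5 were high in nonclassical monocytes of all 3 libraries and at or under 21.2 CPM in the other 3 classes. Cx3cr1 was highest in microglia. Ly6c2 was highest in classical monocytes, whose own gate read it, so that value is a description.

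The cell type was checked with Ace, angiotensin-converting enzyme, which marks nonclassical monocytes and was not part of the gate. Ace stood at 612, 855 and 784 CPM in nonclassical monocytes, at 7.91, 11.7 and 4.23 CPM in classical monocytes, and at 1.81, 1.72 and 2.24 CPM in microglia. It was thus high in all 3 libraries in the gated cells and near background in both other classes. A UMI of Ace was found in 73.1%, 87.0% and 92.3% of nonclassical monocytes and in 1.86%, 0% and 0% of T cells, where 0 of 116 and 0 of 123 cells allow up to 2.59% and 2.44%. After each cell was thinned to 2000 UMIs, which left out 4, 10 and 5 shallower nonclassical monocytes, the shares were 50%, 78.0% and 74.5% against 1.52%, 0% and 0% (0 of 73 and 0 of 102 T cells allow up to 4.11% and 2.94%). The label held for the class as a whole.

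It held less well at the edge of the gate. Of the 147 cells, 58 carried all 6 markers, 35 carried 5, 20 carried 4, 17 carried 3 and 17 carried 2. The share with Ace followed this order, at 100% with 6 markers, 97.1% with 5, 75% with 4, 70.6% with 3 and 47.1% with 2. Ly6c2, which encodes the Ly6C protein of classical monocytes and has the near-identical paralog Ly6c1, was found in 12.1% of cells with 6 markers, 22.9% of those with 5, 20% of those with 4, 47.1% of those with 3 and 41.2% of those with 2. The cells with 3 markers were also the shallowest, with a median of 2015 UMIs against 7743.5 UMIs for cells with 6 markers, and their part in these shares was not tested.

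Just outside the gate, 63 cells met every other condition but carried 1 marker. Their summed level of Ace was 10.7 CPM, against 223 CPM in the 17 cells with 2 markers and 533 CPM in the 17 cells with 3. Nr4a1 stood at 27.6, 118 and 415 CPM in the same order, and Ly6c2 at 1884, 590 and 948 CPM. Cells with 1 marker thus had the highest Ly6c2 and the lowest Ace and Nr4a1 of the 3 groups.

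**Figure D2:**
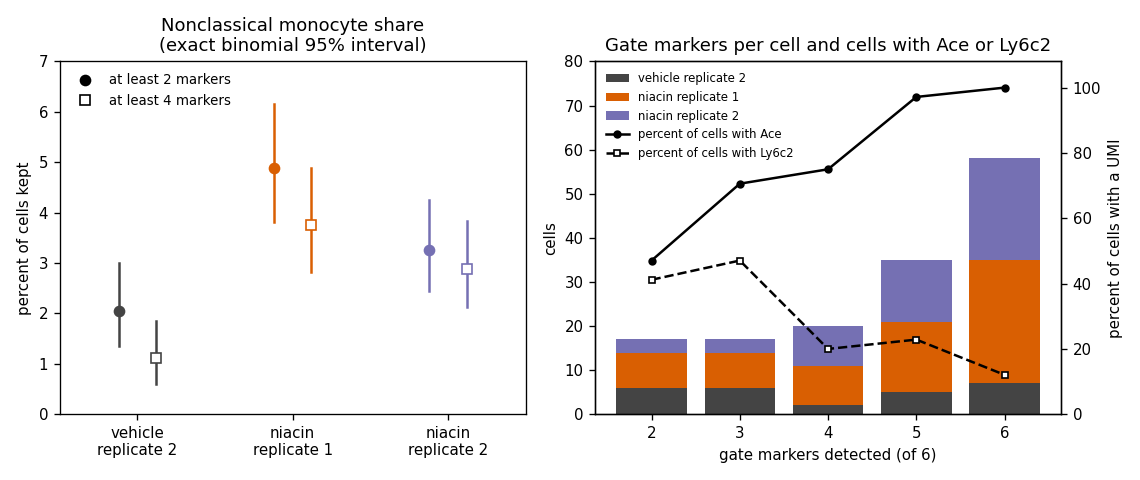
Left, nonclassical monocytes as percent of the cells kept in each library, with exact binomial 95% intervals, for at least 2 and at least 4 gate markers. Right, number of cells by markers detected, stacked by library, with the percent of those cells that carried Ace or Ly6c2; 12 of the 26 vehicle cells carried 2 or 3 markers, against 16 of 69 and 6 of 52 niacin cells.

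Nonclassical monocytes made up 2.06% of the vehicle cells (26 of 1264, exact binomial 95% interval 1.35 to 2.999%), 4.89% of niacin replicate 1 (69 of 1411, 3.82 to 6.15%) and 3.26% of niacin replicate 2 (52 of 1594, 2.45 to 4.26%). Both niacin libraries lay above the vehicle library, but the interval of niacin replicate 2 overlapped that of vehicle. With at least 4 markers, a setting chosen after the data were seen, the shares were 1.11% (0.607 to 1.85%), 3.76% (2.83 to 4.88%) and 2.89% (2.12 to 3.83%). Neither niacin interval overlapped the vehicle interval there. Planned settings separated them less. With every shared barcode dropped, vehicle (1.12 to 2.82%) overlapped both niacin libraries (2.65 to 5.13% and 1.81 to 3.54%). With a stricter filter on genes and mitochondrial UMIs, vehicle (1.99 to 4.41%) also overlapped both (4.19 to 6.94% and 2.86 to 5.08%). With at least 3 markers, niacin replicate 2 (2.28 to 4.04%) overlapped vehicle (0.969 to 2.43%) and niacin replicate 1 (3.32 to 5.52%) did not. Among cells with a Csf1r UMI, which sets aside cells without detected Csf1r, the shares were 3.71%, 6.98% and 4.70%. No test was run, and a difference between pools cannot be told apart from niacin with 1 vehicle library.

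By summed level, markers of other cells were sparse in nonclassical monocytes, apart from erythroid, choroid plexus and neutrophil markers in niacin libraries. By cell, 0, 59 and 30 carried at least 2 erythroid markers, and 8, 41 and 22 at least 2 neutrophil markers. For T cells these numbers were 0, 87 and 59, and 18, 41 and 26. Leaving out cells with at least 2 markers of T, natural killer, B, neutrophil, erythroid or choroid plexus cells kept 16, 5 and 10 nonclassical monocytes. All 6 platelet markers were at 0 in the 3 libraries, and the 8 T cell markers summed to 17.0, 1.84 and 10.3 CPM, with Cd3e, Cd3g and Cd8a at 0. The 10 microglia markers, 5 of which the gate read, summed to 268, 286 and 257 CPM, against 17920 to 23435 CPM in microglia. Hemoglobin and erythroid markers summed to 21.3, 612 and 1453 CPM, choroid plexus markers, chiefly Ttr, to 51.0, 4123 and 130 CPM, and neutrophil markers to 310, 381 and 15584 CPM. Each of these 3 lists was lowest in the vehicle library, with Ly6g, Camp and 6 of 8 choroid plexus markers at 0 there. In niacin replicate 1, 3 of the 69 cells carried at least 2 choroid plexus markers. Ttr stood there at 3620 CPM with the gate as stated and at 234 CPM in cells with at least 3 gate markers. T cells of the same libraries held Hbb-bs at 10.4, 427 and 207 CPM and Ttr at 43.6, 265 and 137 CPM, also lowest in the vehicle library, and the part of such RNA in the results was not tested. In niacin replicate 2, 2 nonclassical monocytes had over 1% of their UMIs in S100a8 and S100a9. Natural killer cell markers summed to 29.8, 3.68 and 16.5 CPM, B cell markers to 153, 127 and 150 CPM, dendritic cell markers to 72.3, 179 and 144 CPM, border-associated macrophage markers to 128, 70.0 and 47.3 CPM, and endothelial markers to 119, 111 and 72.0 CPM. Cycling cell genes summed to 38.3, 16.6 and 12.3 CPM, and 2 cells in each library carried Mki67.

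Which genes set nonclassical monocytes apart from classical monocytes was tested first. Classical monocytes were gated outside the nonclassical class by at least 2 of Ly6c2, Ccr2 and Chil3, with Csf1r and without Arg1 or Cd209a, and numbered 101, 11 and 21 cells. For each class, the UMIs of a library were added up, and these 6 sums were compared by the quasi-likelihood test of edgeR. The library was the block and the 17 genes of either gate were left out. Of 5481 genes tested, 124 were higher in nonclassical monocytes (2.26%) and 128 lower (2.34%) at an adjusted p under 0.05, 4.6% in all. Of the 21 genes of a nonclassical monocyte list, 15 were higher, 0 were lower and 6 were not called. Both classes were gated in the same libraries, so the test describes the gated classes and is not independent of the gates for genes that go with the gate genes. The list's median log2 fold change was 2.25, against -0.02 over all genes tested.

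Within that list the largest changes were in Ace, Cd36 and Nr4a1. Ace had a log2 fold change of 6.15 ± 0.37, adjusted p = 0.000609 (± SE throughout). Nr4a1, the orphan nuclear receptor needed for these cells to form, stood at 646, 881 and 805 CPM in nonclassical and 15.8, 0 and 21.2 CPM in classical monocytes, a log2 fold change of 5.42 ± 0.47, adjusted p = 0.00297. Cd36, a scavenger receptor for lipids, stood at 412, 317 and 352 CPM against 5.65, 0 and 4.23 CPM, a log2 fold change of 6.13 ± 0.43, adjusted p = 0.00098. No library of one class overlapped one of the other in these 3 genes.

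Spn, the sialoglycoprotein CD43, stood at 515, 706 and 632 CPM against 22.6, 41.0 and 63.5 CPM, with a log2 fold change of 3.61 ± 0.36, adjusted p = 0.00409. The transcription factor Pou2f2 was higher by a log2 fold change of 2.91 ± 0.26, adjusted p = 0.00297, and Tcf7l2, a factor of Wnt signaling, by 2.85 ± 0.57, adjusted p = 0.0336. The phosphatase Dusp16 (3.51), the adhesion molecule Ceacam1 (2.91), the adaptor Stap1 (2.83), the G protein subunit Gngt2 (2.81) and the survival factor Bcl2 (2.05) were also higher, as were the lectins Clec4a1 (1.81) and Clec4a3 (1.62). Cx3cr1 stood at 498, 582 and 774 CPM against 153, 52.7 and 216 CPM, and was higher by a log2 fold change of 1.85 ± 0.32, adjusted p = 0.0188. Fcgr4, Cebpb, Klf2, Itgax and Cd274 had positive log2 fold changes of 1.499, 1.05, 1.87, 1.86 and 1.21 that did not pass. Pglyrp1, which binds bacterial peptidoglycan and is abundant in neutrophils, had -0.67 ± 0.84, adjusted p = 0.751, and 4.64 without cells in which S100a8 and S100a9 made up over 1% of the UMIs. Without niacin replicate 2, Tcf7l2, Stap1, Gngt2, Cx3cr1, Clec4a1 and Clec4a3 lost their call, at log2 fold changes of 1.71 to 2.84 and adjusted p of 0.0553 to 0.163.

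The 2 largest positive changes were in genes outside that list. Slc12a2, the sodium-potassium-chloride cotransporter NKCC1, stood at 425, 350.1 and 339.6 CPM in nonclassical monocytes and was listed at 0 in all classical monocytes, at least 155-fold higher against a floor of 3 counts over the 3 classical sums. S1pr5, a sphingosine-1-phosphate receptor that guides the exit of nonclassical monocytes from the marrow, stood at 132, 146 and 136 CPM and was also listed at 0 in classical monocytes, at least 60.0-fold higher. Skint3 (log2 fold change 3.87), Serpinb2, the inhibitor of plasminogen activators (3.63), and Heg1, a membrane protein of vascular development (3.53), completed, with Ace, Cd36, Nr4a1, Spn and Dusp16, the 10 largest among called genes with a mean of at least 50 CPM over the 6 sums. Below that mean, 9 called genes, Pparg among them, had larger changes than Dusp16. Serpinb2 and Heg1 lost their call without niacin replicate 2, at log2 fold changes of 3.62 and 3.20 and adjusted p of 0.0591 and 0.0553.

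Of 12 classical monocyte genes, 5 were lower in nonclassical monocytes, 1 was higher and 6 were not called, and without the vehicle library 10 of 12 were lower. F13a1, the A subunit of coagulation factor XIII, stood at 111, 46.1 and 39.1 CPM against 197, 363 and 436 CPM, a log2 fold change of -2.81 ± 0.55, adjusted p = 0.0309. Fibronectin (Fn1) was lower at -2.49 ± 0.29, adjusted p = 0.00548, thrombospondin 1 (Thbs1) at -2.96 ± 0.51, adjusted p = 0.0188, the lipopolysaccharide co-receptor Cd14 at -2.32 ± 0.41, adjusted p = 0.0198, and Ms4a4c at -1.37 ± 0.29, adjusted p = 0.0377, all as log2 fold changes. Klf4, which the list holds as a monocyte transcription factor, went the other way at 2.29 ± 0.50, adjusted p = 0.0427. Without niacin replicate 2 the 5 lower genes did not pass, at log2 fold changes of -3.16 to -1.07 and adjusted p of 0.0553 to 0.417, nor did Klf4 (3.05, adjusted p = 0.0611).

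Neutrophil RNA moved with the classical class, and its part in the contrast was not tested. Of its cells, 3 of 101, 7 of 11 and 7 of 21 had over 1% of their UMIs in S100a8 and S100a9, and S100a9 stood at 1818, 117092 and 85551 CPM. Among called genes with a mean of at least 50 CPM, the 10 with the largest negative log2 fold changes were granulocyte genes for the most part, led by Retnlg (-7.91 ± 1.18, adjusted p = 0.0121) with Camp, Ngp, Fcnb, Mmp8, Prtn3, S100a8, Wfdc21 and S100a9. Retnlg had -9.26 (adjusted p = 0.0625) without niacin replicate 2. Below that mean, 7 called genes had larger negative changes than the last of the 10, among them the T cell genes Cd3g, Cd3e and Cd8b1 and the cell cycle genes Birc5 and Ccnb2. Of the markers of other cells, 6 of 8 neutrophil, 4 of 5 T cell and 3 of 4 cycling cell genes tested were lower in nonclassical than in classical monocytes. Without such cells, which left 98, 4 and 14 classical monocytes, 195 genes were higher and 145 lower, 180 of the 252 calls held, and 18 of the 21 nonclassical genes were higher. Without niacin replicate 2, 23 genes were higher and 13 lower, 33 of the 252 calls held, and 8 of the 21 nonclassical genes were higher. Without the vehicle library, 201 were higher and 256 lower, 213 of the 252 calls held, and 20 of the 21 nonclassical genes were higher. The remaining nonclassical gene, Pglyrp1, was lower in that setting (log2 fold change -1.83, adjusted p = 0.00811, edgeR). Ace, Nr4a1, Cd36, Spn, Pou2f2, Dusp16, Slc12a2 and S1pr5 kept their call without niacin replicate 2 and without the S100-high cells. Of 39 called genes followed across the settings against classical monocytes, 14 kept their call without niacin replicate 2 and 25 with every shared barcode dropped. Itgal, Cx3cr1, Tcf7l2, Klf4, Itga4, Itgb1 and each lower gene given with a value, apart from Spp1, were among the 25 that lost it.

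**Figure D3:**
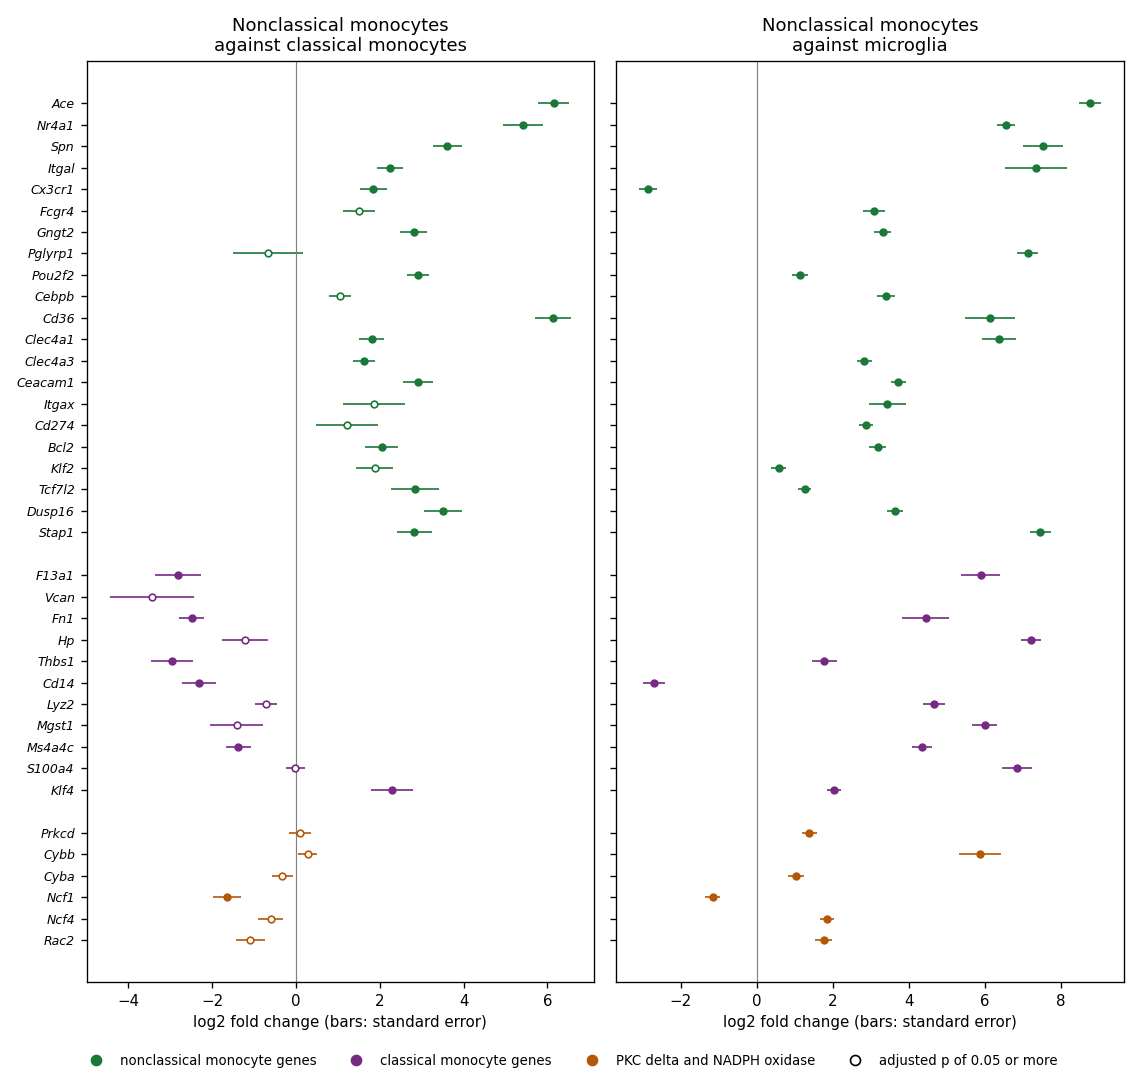
Log2 fold changes (points) with standard errors (bars) of nonclassical against classical monocytes (left) and against microglia (right), over 3 libraries with library as block, for genes of 3 lists. Filled points passed an adjusted p of 0.05; most nonclassical genes lie to the right of 0 in both panels, Cx3cr1 changes side between them, and of the 6 oxidase genes drawn 1 passed in the left panel and 6 in the right.

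Against microglia, gated by at least 3 of the 5 microglia genes (333, 786 and 841 cells), far more genes differed. Of 9796 genes tested, 2212 were higher (22.6%) and 2454 lower (25.1%) in nonclassical monocytes, 47.6% in all. Without niacin replicate 1 the counts were 1403 and 1342. Of the 21 nonclassical genes, 20 were higher and 1, Cx3cr1, was lower, with a list median of 3.43 against -0.14 over all genes tested. Cx3cr1 stood at 4246, 5693 and 5131 CPM in microglia, a log2 fold change of -2.86 ± 0.23, adjusted p = 1.87e-06. Ace was higher by 8.76 ± 0.29, adjusted p = 1.44e-08, S1pr5 by 9.98 ± 0.40, adjusted p = 2.53e-08, and Spn by 7.53 ± 0.52, adjusted p = 5.53e-07. Among called genes with a mean of at least 50 CPM, the aspartic protease Napsa (8.04) and the receptor Trem3 (9.33) were also among the 10 largest.

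Monocyte genes of both lists separated the class from microglia. Of the 11 classical monocyte genes tested, 10 were higher in nonclassical monocytes than in microglia and Cd14 was lower. Lyz2, lysozyme, stood at 8704, 9317 and 12284 CPM against 573, 386 and 395 CPM, a log2 fold change of 4.67 ± 0.29, adjusted p = 2.64e-07. Haptoglobin (Hp) was higher by 7.21 ± 0.27, adjusted p = 1.48e-08 and the calcium-binding protein S100a4 by 6.84 ± 0.41, adjusted p = 1.93e-07. Sparc, a matrix protein that marks microglia and that the gate did not read, was lower at -7.80 ± 0.31, adjusted p = 2.53e-08. Serpine2, which inhibits thrombin, headed the lower genes and was listed at 0 in the nonclassical monocytes of all 3 libraries and at 323 to 382 CPM in microglia.

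Genes of adhesion and trafficking differed in part from classical monocytes. Of 19 tested, 7 were higher, 1 lower and 11 not called (3 higher and 0 lower without niacin replicate 2), and against microglia 14 of 21 were higher and 5 lower. Itgal, the alpha chain of LFA-1 on which patrolling depends, stood at 1161, 1588 and 1416 CPM in nonclassical monocytes, 344, 141 and 212 CPM in classical monocytes and 1.48 to 47.0 CPM in microglia. Its log2 fold change was 2.25 ± 0.30, adjusted p = 0.00809 against classical monocytes and 7.34 ± 0.82, adjusted p = 2.11e-05 against microglia. The integrin chains Itga4 (1.59 ± 0.24, adjusted p = 0.0127) and Itgb1 (1.28 ± 0.25, adjusted p = 0.0306) were higher than in classical monocytes too. Ccr1, a receptor for inflammatory chemokines, was lower (-2.62 ± 0.53, adjusted p = 0.034), at 187, 12.9 and 8.23 CPM against 459.9, 176 and 55.0 CPM. Selplg, the ligand of P-selectin, was lower than in microglia (-2.60 ± 0.22, adjusted p = 2.46e-06). Without niacin replicate 2, Itgal, Itga4, Itgb1 and Ccr1 had log2 fold changes against classical monocytes of 2.20, 1.61, 1.16 and -2.62 and did not pass, at adjusted p of 0.103 to 0.335.

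Of 19 transcription factors tested against classical monocytes, Nr4a1, Pou2f2, Klf4, Tcf7l2 and Pparg were higher and 14 were not called. Leaving out 1 library gave 3 higher factors without niacin replicate 2 and 8 without the vehicle library. Pparg, a lipid-activated nuclear receptor, stood at 80.8, 99.5 and 101 CPM against 0, 0 and 8.46 CPM, a log2 fold change of 5.20 ± 0.78, adjusted p = 0.0121. Against microglia 12 of 22 factors were higher and 5 lower, among the latter Maf (-3.75 ± 0.36, adjusted p = 6.73e-06), a regulator of macrophage identity. In the survival list Bcl2 was the 1 gene of 12 called against classical monocytes, and it lost that call with every shared barcode dropped (log2 fold change 1.27, adjusted p = 0.472), with cells thinned to 2000 UMIs (1.46, adjusted p = 0.212) and when the library was not used as a block (1.98, adjusted p = 0.0798). The survival list had more calls against microglia, where 9 of 13 were higher and 2 lower, with Bcl2 at 3.17 ± 0.23, adjusted p = 7.7e-07.

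Few genes of antigen presentation or interferon response were called between the 2 monocyte classes, and these counts moved with the libraries and the gate. None of 7 MHC class II genes and none of 13 MHC class I genes was called against classical monocytes by edgeR or DESeq2, and 0 and 1 of them had an unadjusted p under 0.05 in edgeR. Without niacin replicate 1, however, 6 of the 7 MHC class II genes were lower, with a median log2 fold change of -1.64 against -0.50 with all libraries, and with every shared barcode dropped 2 of 7 were lower. Of 21 interferon response genes Isg15 alone was lower (-2.36 ± 0.38, adjusted p = 0.0148), with -2.29 (adjusted p = 0.137) without niacin replicate 2, and 8 had an unadjusted p under 0.05, all lower. The number lower rose to 5 of 20 with at least 3 gate markers, 7 of 18 with at least 4, and 6 of 17 without the cells that carried Ly6c2. Against microglia, 9 of 13 MHC class I genes were higher, among them H2-K1 (1.43 ± 0.25, adjusted p = 0.00058) and H2-D1 (1.51 ± 0.24, adjusted p = 0.000361), and 18 of 21 interferon response genes were higher, with Ifitm3 at 5.58 ± 0.59, adjusted p = 1.41e-05 and Irf7 at 3.29 ± 0.21, adjusted p = 3.34e-07. That count was 10 of 21 without the vehicle library and 5 of 21 with no replicate block. With at least 4 markers, 7 of 22 were higher and 1 lower, and the list's median log2 fold change was 0.53 against 1.76 with the gate as stated. MHC class I had 5 of 13 higher without niacin replicate 1. MHC class II split, with 3 of 9 higher and 3 lower. H2-Aa was carried by 12 of 26, 10 of 69 and 18 of 52 nonclassical monocytes at 739.9, 1317 and 541 CPM, so the library with the smallest share of positive cells had the highest level. Its log2 fold change against microglia, 2.09 ± 0.64, adjusted p = 0.0179, was 1.02 (adjusted p = 0.185) without niacin replicate 1 and 0.14 (adjusted p = 0.816) without cells that carried markers of other types. That last setting left 5 nonclassical monocytes in niacin replicate 1.

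Among Fc receptors, Fcgr4, an activating receptor for IgG, was higher than in microglia (3.08 ± 0.29, adjusted p = 5.82e-06), and the high-affinity receptor Fcgr1 was lower than in both classical monocytes (-1.20 ± 0.27, adjusted p = 0.045) and microglia (-1.74 ± 0.38, adjusted p = 0.00307). Over the list, 1 of 5 was lower and 0 higher against classical monocytes, and 2 of 6 were higher and 4 lower against microglia (2 lower without niacin replicate 1 or without niacin replicate 2). Of 10 complement genes, C3 (-1.70 ± 0.28, adjusted p = 0.0175) and properdin, Cfp (-1.99 ± 0.33, adjusted p = 0.0176), were lower than in classical monocytes. Without niacin replicate 1, 6 of the 10 complement genes were lower. Fcgr1, C3 and Cfp did not pass without niacin replicate 2, at -1.08, -1.69 and -2.11 and adjusted p of 0.115 to 0.434, and Fcgr1 had -1.19 (adjusted p = 0.0578) against microglia without niacin replicate 1. Against microglia 3 of 10 complement genes were higher and 6 lower. C1qa stood at 21.3, 42.4 and 24.7 CPM in nonclassical monocytes and 6015 to 8687 CPM in microglia, a log2 fold change of -7.87 ± 0.32, adjusted p = 2.53e-08.

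The phagocyte oxidase makes reactive oxygen species, and Prkcd encodes protein kinase C delta, which phosphorylates its subunits. Of 7 genes, Ncf1 was lower than in classical monocytes (-1.64 ± 0.33, adjusted p = 0.0344), a call lost without cells high in S100a8 and S100a9 (log2 fold change -0.44, adjusted p = 0.508) and without niacin replicate 1 (-1.31, adjusted p = 0.0644) or 2 (-1.55, adjusted p = 0.283), and 6 were not called. Prkcd stood at 808, 534 and 626 CPM in nonclassical and 956, 316 and 326 CPM in classical monocytes, with a log2 fold change of 0.09 ± 0.26, adjusted p = 0.913. Its vehicle value was the highest of the 3 libraries in both. Against microglia, where it stood at 386, 249 and 231 CPM, Prkcd was higher (1.38 ± 0.20, adjusted p = 0.000142). Cybb, the catalytic subunit of the oxidase, was higher by 5.87 ± 0.55, adjusted p = 5.08e-06, Cyba, Ncf4 and Rac2 by 1.03, 1.84 and 1.76, and Ncf1 was lower (-1.17).

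Of 14 cytokine and chemokine genes, Ccl3 was higher than in classical monocytes (1.51 ± 0.34, adjusted p = 0.0451), and lost that call without any 1 of the 3 libraries, at log2 fold changes of 1.38 to 1.70. Against microglia 7 of 21 were higher, with Il1b at 3.82 ± 0.37, adjusted p = 6.35e-06, and 11 lower, with Il1a at -4.72 ± 0.39, adjusted p = 2.25e-06 and Ccl4 at -3.35 ± 0.56, adjusted p = 0.000453. Without niacin replicate 1, 6 were lower. Of 14 lipid genes, Cd36 and Pparg were higher than in classical monocytes and osteopontin, Spp1, was lower (-4.64 ± 0.73, adjusted p = 0.0145). Trem2, the lipid-sensing receptor of microglia, was lower than in microglia (-4.90 ± 0.26, adjusted p = 1.23e-07). No gene of 10 checkpoint genes or 14 immediate early genes was called against classical monocytes by edgeR, with 6 and 3 at an unadjusted p under 0.05 and 1 and 0 called by DESeq2. Without the vehicle library edgeR called 5 of 9 checkpoint genes, 3 higher and 2 lower, and 1 of 13 immediate early genes, lower. Against microglia 5 of 13 checkpoint genes were higher and 7 lower (4 and 1 without niacin replicate 1), and 11 of 16 immediate early genes were lower and 1 higher, with Fos at -1.40 ± 0.22, adjusted p = 0.000303. Hcar2, the niacin receptor, was too sparse to be tested against classical monocytes, at 42.5, 3.68 and 6.17 CPM, and was not called against microglia (-0.94 ± 0.46, adjusted p = 0.11). Of the NAD salvage genes Nampt alone was called, higher than in microglia (1.84 ± 0.22, adjusted p = 4.27e-05). Nampt stood at 442, 49.7 and 105 CPM in nonclassical monocytes, highest in the vehicle library.

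The class was not uniform. A Ly6c2 UMI was carried by 13 of 26 vehicle cells (50%, exact binomial 95% interval 29.9 to 70.1%), 5 of 69 cells of niacin replicate 1 (7.25%, 2.39 to 16.1%) and 16 of 52 of niacin replicate 2 (30.8%, 18.7 to 45.1%), 34 of 147 in all. In microglia of the same libraries, at median depths of 6635, 5270 and 5542 UMIs against 8140, 7493 and 7718 UMIs, the shares were 9.91%, 2.67% and 1.78%. Niacin replicate 1 was lowest among nonclassical monocytes and did not overlap either other library in its interval. Thinned to 2000 UMIs per cell, the shares were 36.4%, 0% and 17.0% (0 of 59 cells allows up to 5.08%), against 4.92%, 1.07% and 1.23% in microglia.

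Cells with Ly6c2 held less of the nonclassical genes and more of several classical ones when the libraries were summed. Summed over the 3 libraries, Nr4a1 stood at 959.9 CPM (95% interval 895 to 1028) without and 492 CPM (426 to 565) with a Ly6c2 UMI. Ear2 was at 988 CPM without and 489 CPM with Ly6c2, Spn at 764 CPM without and 387 CPM with Ly6c2 and Cd300e at 442 CPM without and 173 CPM with Ly6c2. F13a1 was at 4.69 CPM without and 161 CPM with Ly6c2, and in each library it was higher in the cells with Ly6c2. Vcan, the proteoglycan versican, was at 0 CPM without and 48.7 CPM with Ly6c2, but 19 of its 20 UMIs came from the vehicle library, with 0 in niacin replicate 1 and 1 in niacin replicate 2. In niacin replicate 1, Ccr2 (249 CPM without, 183 CPM with) and Ms4a4c (174 CPM without, 152 CPM with) were lower with Ly6c2, with overlapping intervals. Prkcd was at 629 CPM without and 602 CPM with Ly6c2, with overlapping intervals. Within each library Prkcd was lower in the cells with Ly6c2, also with overlapping intervals. It stood at 983 without and 710 CPM with Ly6c2 in vehicle, 545 and 457 CPM in niacin replicate 1, and 665 and 566 CPM in niacin replicate 2. Ace stayed high on both sides, at 902 CPM without and 533 CPM with Ly6c2. The cells with Ly6c2 were deeper, at a median of 10953 against 7034 UMIs, and depth raises the chance of finding 1 UMI. The split was made on a measured gene, so these values are a description and no test was run.

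Within each library Nr4a1 was lower in the cells with Ly6c2. In the vehicle library it was 1232 CPM in 13 cells without and 318 CPM in 13 cells with Ly6c2. In niacin replicate 1 it was 929 CPM in 64 and 533 CPM in 5 cells, and in niacin replicate 2 it was 932 CPM in 36 and 613 CPM in 16 cells. In the contrast with classical monocytes, leaving out the cells with Ly6c2 gave 193 higher and 256 lower genes, and 236 of the 252 calls held.

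**Figure D4:**
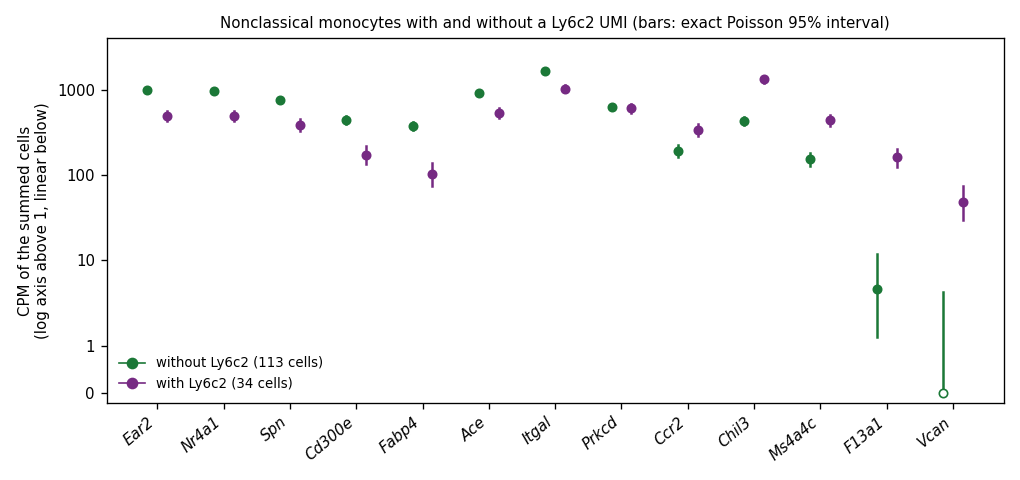
Levels of 13 genes in nonclassical monocytes with (34 cells) and without (113 cells) a Ly6c2 UMI, in CPM of the summed cells of the 3 libraries (log axis above 1, linear below), with exact Poisson 95% intervals. Ear2, Nr4a1, Spn, Cd300e, Fabp4, Ace and Itgal were lower and Ccr2, Chil3, Ms4a4c, F13a1 and Vcan higher in cells with Ly6c2 in these sums, while the intervals of Prkcd overlapped.

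Niacin and vehicle were compared within nonclassical monocytes by size, and no test was run, since 1 vehicle library gives no spread of its group. A gene was counted where it had at least 30 UMIs over the class, differed at least 2-fold from vehicle in the same direction in both niacin libraries, and had both niacin Poisson intervals apart from the vehicle interval. Of 5331 genes in range, 203 were lower (3.81%) and 30 higher (0.563%) with niacin. Against niacin replicate 1 alone 286 were lower and 94 higher, and against niacin replicate 2 alone 284 and 76. Of 20 interferon response genes in range, 15 were lower, with a median log2 ratio of -2.71 against -0.04 over all genes in range. Cxcl9, an interferon-induced chemokine that draws T cells, was at 1373 CPM in vehicle and 0 in both niacin libraries. Cxcl10, another, was at 876, 24.0 and 2.06 CPM, Isg15, a ubiquitin-like protein induced by interferon, at 425, 16.6 and 47.3 CPM, and Ifit1 at 213, 3.68 and 2.06 CPM.

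Other lists had lower genes too, with counts that fell as the gate was narrowed. Of 13 cytokine genes 7 were lower, among them Ccl5, at 510.3, 5.53 and 6.17 CPM, and the interleukin-1 receptor antagonist Il1rn, at 383, 1.84 and 12.3 CPM. Of 11 classical monocyte genes 4 were lower, among them F13a1, Thbs1 and Ms4a4c, Ly6c2 itself stood at 833, 24.0 and 187 CPM, and 3 of 6 Fc receptors and 4 of 9 complement genes were lower. With at least 3 markers, the lower genes in range were 4 of 10 cytokine, 1 of 10 classical monocyte, 1 of 6 Fc receptor and 0 of 7 complement genes. With at least 4 markers they were 1 of 8, 0 of 7, 0 of 6 and 0 of 7, and S100a4 of the classical list was higher. Ccl5, for example, stood at 8.31, 6.86 and 6.90 CPM in cells with at least 4 markers. In the nonclassical list Pglyrp1 was the 1 gene of 21 past the rule, at 276, 566 and 629.7 CPM. Nr4a1, Spn, Itgal and Cx3cr1 had mean log2 ratios of 0.38, 0.38, 0.37 and 0.43. The oxidase list had 0 genes past the rule, and Prkcd had a mean log2 ratio of -0.48. Of the 10 genes with the largest positive ratios, Hbb-bs, Hba-a2, Hba-a1, Ttr and S100a8 belong to the erythroid, choroid plexus and neutrophil lists given above, and the others included Vill, G0s2, Grpel1 and BC035044. Vill stood at 4.25, 44.2 and 51.4 CPM and G0s2, an inhibitor of lipolysis, at 21.3, 95.8 and 107 CPM. With at least 4 markers Pglyrp1, Ttr, Vill, G0s2, Grpel1 and BC035044 no longer met the rule.

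The highest interferon response values came from vehicle cells at the edge of the gate. Summed over the 22 genes, the 12 vehicle cells with 2 or 3 markers held 13618 CPM of interferon response UMIs (95% interval 12952 to 14311), and the 14 vehicle cells with 4 to 6 markers held 4045 CPM (3693 to 4420). Niacin cells with 4 to 6 markers held 4126 CPM (3938 to 4321) in replicate 1, 53 cells, and 4657 CPM (4456 to 4864) in replicate 2, 46 cells. By this sum, the vehicle library was thus not above niacin in cells with 4 to 6 markers. Niacin cells with 2 or 3 markers held 3417 CPM (3073 to 3789) in replicate 1, 16 cells. In replicate 2 they held 6445 CPM (5767 to 7182), 6 cells. By single cell, the vehicle cells with 2 or 3 markers ran from 801 to 24497 CPM with a median of 8117 CPM, and those with 4 to 6 markers from 2096 to 7293 CPM with a median of 3870 CPM. The medians of niacin cells with 4 to 6 markers were 3767 and 4004 CPM.

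The same vehicle cells carried Ly6c2 in 9 of 12 cases, against 4 of 14 with 4 to 6 markers, and their Nr4a1 was at 183 CPM, against 1088 CPM. The 36.5% share of Cxcl9 UMIs and 49.0% of Isg15 UMIs in the vehicle library came from 1 cell each. With at least 4 markers, 0 of 12 interferon response genes in range were lower, 34 of 4626 genes were lower in all and 20 higher, and 17 of the 203 lower genes and 8 of the 30 higher ones were shared. The 12 interferon response genes had a median log2 ratio of -0.51 there, against -0.08 over all genes in range. The setting of at least 4 markers was added after the values were seen. With at least 3 markers, 6 of 16 interferon genes were lower, among 89 lower genes in all. Of the genes lower with at least 4 markers, chosen here after their values were seen, AW112010 stood at 955, 86.8 and 103 CPM, the interferon-induced GTPase Gbp2 at 191, 32.0 and 50.6 CPM, and Ccl4 at 208, 0 and 20.7 CPM.

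Interferon response genes were also lower with niacin in the comparison classes. The 22 genes summed to 11449, 3573 and 3795 CPM in classical monocytes, 1926, 496 and 583 CPM in microglia and 2793, 892 and 1666 CPM in T cells, against 8717, 3989 and 4844 CPM in all nonclassical monocytes. Vehicle was highest in all 4 classes. Whether the niacin difference in nonclassical monocytes differs from that in the other classes was not tested, since each contrast rests on the same 1 vehicle library.

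**Figure D5:**
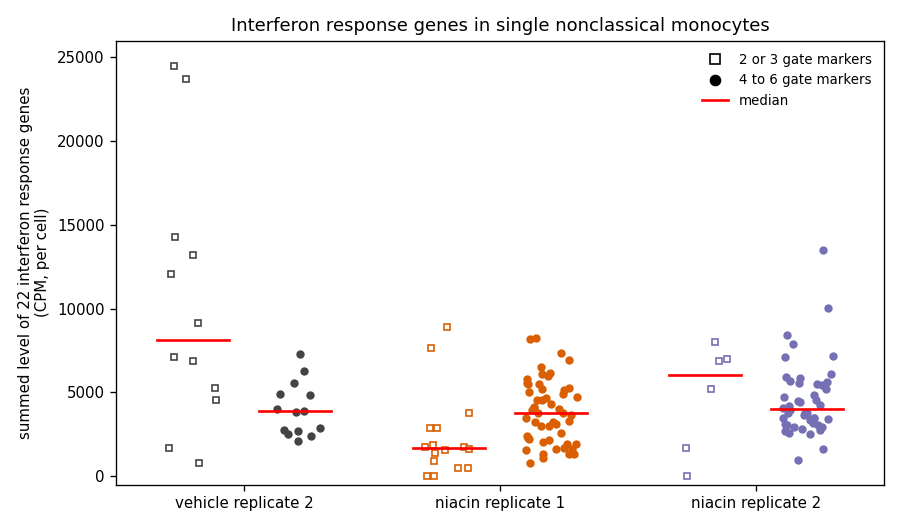
Summed level of 22 interferon response genes in each nonclassical monocyte, in CPM, by library and by number of gate markers, with red bars at the medians. The high vehicle values, up to 24497, belong to cells with 2 or 3 markers, and vehicle cells with 4 to 6 markers stay within the range of the niacin cells.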

How the data were processed

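Live cells from pooled mouse tumor tissue were profiled by droplet single-cell RNA sequencing in 1 vehicle and 2 niacin libraries. The authors aligned reads to mm10 with Cell Ranger 3.1, which runs STAR, per the labels and the study's methods, and deposited a matrix of raw UMI counts per gene and barcode for each library. The annotation version is not given in the sources used here. Coordinates are from GRCm38 with GENCODE M21.

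Cells with at least 200 genes and at most 20% mitochondrial UMIs were kept, and a barcode shared with another library was kept where its UMIs were at least 5 times those of the copy. No doublet caller was run. Classes were gates on UMIs that exclude each other, and T cells (at least 2 of Cd3d, Cd3e, Cd3g and Trac, no Csf1r) gave the background of free RNA. Each class gave 1 sum of UMI counts in every library, and these sums were tested with edgeR 4.0.16 in R 4.3.3 (TMM, filterByExpr, library as block, Benjamini-Hochberg over all genes tested). The pairing is the shared library: deviations of both classes in a library correlated at 0.127 to 0.479 for classical monocytes and 0.141 to 0.287 for microglia. The block takes out the level of each library. P-values thus measure how the class difference varied over the 3 libraries, which mix vehicle and niacin. Niacin was compared with vehicle by size alone, with a library at 0 set at 3 counts. Intervals are exact (Poisson for levels, binomial for shares, 95%) and cover counting error only. The edgeR step was tested on 10 simulated data sets with 200 changed genes each. These kept the total UMIs and dispersions of the data but gave each unchanged gene 1 mean level in all libraries. The rates below may therefore not carry over to data in which libraries differ. Against classical monocytes it called 11.7% of genes with a log2 fold change of size 1 and 80.4% of those of size 2. Against microglia it called 36.9% and 85.9%. Unchanged genes made up 7.72% and 7.71% of the calls at an adjusted p under 0.05. A gene not called, above all against classical monocytes, may thus still differ.

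The members, gene lists and tests were chosen with earlier results of these data known. Named genes were the gate markers, Csf1r and Ace, genes of the nonclassical, classical and oxidase lists, up to 4 called genes of each other list by p, and the 10 largest changes each way at a mean of at least 50 CPM with 1 direction in all 3 libraries. Others were named after their values were seen, where a count of 5 or fewer is spelled out or a role is illustrated. Alternatives were DESeq2 1.42.0, its size factors, other marker minimums, cell filters and barcode rules, thinning to 2000 UMIs, no low-count filter, no block, and leaving out each library, the cells with Ly6c2 or cells with markers of other types. A minimum of 4 markers and leaving out cells with over 1% of UMIs in S100a8 and S100a9 were added after the data were seen. Values of some list members are not reported here.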

Additional observations from a re-analysis of the deposited data

How the results depend on the processing

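Against classical monocytes, the counts of genes higher and lower (124 and 128) were 61 and 17 with no replicate block, that is, without pairing the classes by library, 289 and 395 with no low-count filter, 50 and 77 with every shared barcode dropped, 28 and 42 with cells thinned to 2000 UMIs, which left 1481 genes to test, and 193 and 256 without the cells that carried Ly6c2. Leaving out 1 library gave 23 to 201 higher and 13 to 256 lower, the fewest without niacin replicate 2 and the most without the vehicle library. Lower genes numbered 207 with at least 3 markers and 273 with at least 4, and higher genes 195 without cells high in S100a8 and S100a9. Pglyrp1 was reversed in that last setting, at a log2 fold change of 4.64. Without the block, 77 of the 252 calls held and no sign changed. Leaving out cells with markers of other types could not be run here, since it left no classical monocyte in niacin replicate 1. Against microglia (2212 and 2454) the counts were 747 and 875 without cells carrying markers of other types, 1120 and 1357 with thinned cells, 2025 and 2280 with no replicate block, and 1403 to 2352 and 1342 to 2660 with 1 library left out. The setting without cells carrying markers of other types left 16, 5 and 10 nonclassical monocytes (vehicle, niacin replicate 1, niacin replicate 2). The share of nonclassical monocytes moved to 1.11% in vehicle and 3.76% in niacin replicate 1 with at least 4 markers, to 3.03% in vehicle with at least 500 genes and at most 10% mitochondrial UMIs, to 3.75% in niacin replicate 1 with every shared barcode dropped, and to 3.71%, 6.98% and 4.70% among cells with Csf1r. Genes lower with niacin numbered 86 at a minimum of 100 UMIs, 89 with at least 3 markers and 34 with at least 4, and with 1 niacin library left out the rule gave 76 to 94 higher and 284 to 286 lower. Over the named genes and all alternatives, 1392 results stayed on their side of the threshold, 99 lost a call, 32 gained one and 1 was reversed. The cause was not tested for any of these. With 26 to 69 cells per library, sparse genes such as Hcar2 could not be tested against classical monocytes at this depth.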

Other observations

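Genes outside the lists that set nonclassical monocytes apart from microglia included Rasgrp2, Dock5 and Krt80 among the 10 largest positive changes of called genes with a mean of at least 50 CPM, and Fscn1 and Adamts1 among the 10 largest negative ones. Rasgrp2, an exchange factor that activates integrins through Rap1, stood at 208, 319 and 370.4 CPM in nonclassical monocytes (vehicle, niacin replicate 1, niacin replicate 2) and 0.738 to 3.17 CPM in microglia, a log2 fold change of 7.71 ± 0.35, adjusted p = 5.14e-08 (SE, edgeR). Dock5, an exchange factor for Rac, stood at 80.8, 119.8 and 134 CPM against 0 to 0.905 CPM, at 8.58 ± 0.47, adjusted p = 1.24e-07, and the keratin Krt80 at 221, 357 and 243 CPM against 0.246 to 2.26 CPM, at 8.28 ± 0.38, adjusted p = 5.43e-08. On the other side, Fscn1, which bundles actin, stood at 0, 0 and 0 CPM against 162 to 199 CPM in microglia, and the protease Adamts1 at 0, 0 and 0 CPM against 186 to 228 CPM.

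Among genes lower with niacin outside the interferon list, the immunity-related GTPase Iigp1 stood at 336, 0 and 0 CPM, the schlafen Slfn4 at 187, 1.84 and 6.17 CPM, complement factor B, Cfb, at 208, 3.68 and 4.12 CPM and the membrane metalloproteinase Mmp14 at 119, 3.68 and 2.06 CPM. None of the 4 met the rule in cells with at least 3 or 4 markers, where they fell below 30 UMIs. With at least 4 markers Iigp1 stood at 8.31, 0 and 0 CPM, Slfn4 at 16.6, 0 and 6.90 CPM, Cfb at 16.6, 4.57 and 2.30 CPM and Mmp14 at 91.4, 0 and 2.30 CPM. In cells with at least 3 gate markers, 20 of 4949 genes in range were higher with niacin by size. Among them were 2 of 7 MHC class II genes, H2-Aa and H2-Eb1. With the gate as stated 0 of 7 MHC class II genes were higher, and with at least 4 markers 0 of 6. With the gate as stated, H2-Aa was carried by 12 of 26, 10 of 69 and 18 of 52 cells. No test was run for these values.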
